A study of Drosophila melanogaster with 33 samples.

Results

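The steadiness of A-to-I RNA editing over a day was examined in nascent RNA of Drosophila heads, at all 1350 editing sites of the deposited table, which holds every site of the series. The sites lie in 395 gene entries, of which 208 have 1 listed site. No site was selected or left out. Nascent RNA is the RNA still held on chromatin by the polymerase that is making it, and it was prepared from purified head nuclei and depleted of polyadenylated RNA. The libraries at issue are 12 from yw flies aged 3 to 4 days, kept in light:dark cycles and sampled at Zeitgeber times 2, 6, 10, 14, 18 and 22 h. They form replicate set 1 and replicate set 2, with 6 libraries each, and only set 1 is described in the labels as depleted of ribosomal RNA.

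Other libraries of the series serve here as readouts outside those 12, all from flies aged 3 to 4 days. They are nascent RNA of ADAR0 males, which come from a strain named for loss of the editing enzyme, and of FM7a males and yw males, with 2 libraries each from preparations of 40 to 45 heads. They also include head mRNA of yw flies in 2 libraries and of Canton S flies in 12, and genomic DNA of yw flies in 1 library. The groups differ in strain only as far as the labels name it, and no further alleles are given. Sexes of the light:dark flies are not given.

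In A-to-I editing the enzyme ADAR deaminates adenosine within double-stranded stretches of RNA, and inosine is read as guanosine in sequencing and by the ribosome. In flies the single Adar gene acts mostly in neurons, and many of its known targets encode ion channels and proteins of synaptic release. Exonic sites often pair with a complementary stretch in a neighbouring intron, so that the duplex exists before splicing is complete.

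Each site has 2 summary values of the 12 libraries in the deposited table. The pooled level is the percent edited among the reads of all 12 libraries. The 5th percentile is the level that nearly all libraries exceeded. With 12 libraries it lies at or next to the lowest one. A site was said to hold its level when the 5th percentile was at least 50% of the pooled level, and to drop to 0 when the 5th percentile was listed at 0. Sites with neither property are called intermediate. The levels of single libraries are not part of the table, so the library in which a site was low is unknown. Time of day, library and replicate set cannot be told apart in this measure. Read depth behind the RNA levels is unknown as well, and a 0 says only that the site is listed at 0. The part of depth in whether a site held its level was likewise not tested. The sources used here do not state how a library with few or no reads at a site entered the percentile. No test over libraries could be made, so all comparisons below are counts and levels over sites. Sites are not replicates.

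Over all sites the 5th percentile had a median of 8% and a range of 0% to 90%, beside a median pooled level of 21% and a range of 4% to 95%. The 5th percentile stood at a median of 43.5% of the pooled level, with a middle range of 25.0% to 63.6%. In all, 594 sites held their level, which is 44.0% of the 1350, and 104 dropped to 0, which is 7.70%. The other 652 were intermediate. Many sites lay near the threshold of 50%: 108 had a 5th percentile between 50% and 55% of the pooled level and 58 had one between 45% and 50%. The 104 sites at 0 stand beside 33 with a 5th percentile of 1% and 107 with 2%. Because the values are deposited to the nearest percent, the ratio is coarse at low levels.

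Steadiness went with level. Of 173 sites with a pooled level under 10%, 22.5% held it and 28 dropped to 0. Between 10% and 19% the share holding was 24.1% of 453 sites, between 20% and 29% it was 39.4% of 251, and between 30% and 49% it was 61.4% of 272. Of 129 sites between 50% and 69%, 83.7% held and 2 dropped to 0. All 72 sites at 70% or more held their level, and the lowest 5th percentile among them was 50%. In points, the gap between the 5th percentile and the pooled level had medians of 5, 9, 14, 16, 18 and 11 over these 6 level bands from low to high. It was widest for mid-level sites. All comparisons of genes and Region classes below are therefore made within these bands.

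**Figure D1:**
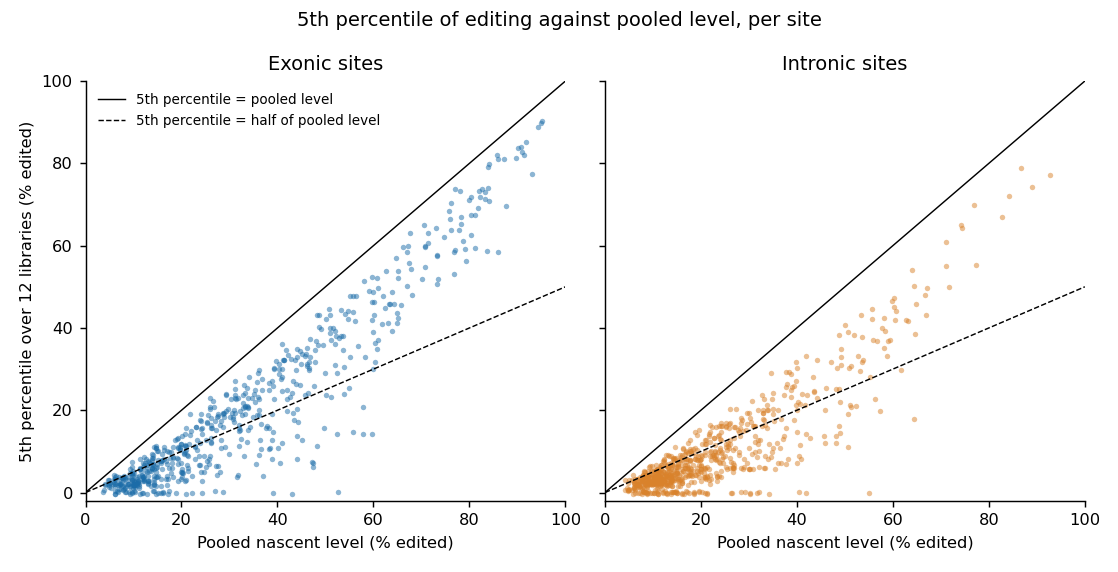
The 5th percentile over the 12 light:dark nascent libraries (vertical axis, percent edited) is plotted against the pooled level (horizontal axis, percent edited) for 621 exonic sites (left) and 729 intronic sites (right), 1 point per site with a small random offset. Points on or above the dashed line held their level, and every site at 70% or more is among them, while the row of points at 0 is densest under 20%.

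The sites with the highest 5th percentiles were exonic sites of channel, exchanger and synaptic genes. The L-type calcium channel gene Ca-alpha1D had a site with a 5th percentile of 90% and a pooled level of 95% (chromosome 2L, position 16174194 as deposited). In the replicate sets it stood at 96% in set 1 and 94% in set 2. Syn, which encodes the vesicle-associated protein synapsin, had the same pair of values at position 6021148 of chromosome 3R. The calcium-activated potassium channel gene slo followed with 89% and 94% (chromosome 3R, position 20532273).

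A site of the delayed-rectifier potassium channel gene Shab had a 5th percentile of 85% and a pooled level of 92% (chromosome 3L, position 2941426). A site of the T-type calcium channel gene Ca-alpha1T had 84% and 91% (chromosome X, position 6002745), and a site of GluClalpha, a glutamate-gated chloride channel gene, had 84% and 90% (chromosome 3R, position 15579486). Further sites of Ca-alpha1D at 83% and 82%, a second site of Ca-alpha1T at 82% and a site of the sodium-calcium-potassium exchanger gene Nckx30C at 81% complete the 10 highest 5th percentiles. All 10 were exonic and all 10 were found in each of the 4 control male libraries, which were made separately from the 12. Of all 72 sites at 70% or more, 60 (83.3%) were exonic and 63 (87.5%) were found in all 4. The smallest gap at a level of 50% or more belonged to another Shab site, with a 5th percentile of 74% and a pooled level of 77%. A site of Syt1, the calcium sensor of vesicle fusion, had 80% and 84%.

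At the other end, 26 of the 104 sites at 0 had a pooled level of 20% or more, and 11 had one of 30% or more. These sites were edited at a substantial level in the pool and are nevertheless listed at 0 in the 5th percentile. The highest was an intronic site of toc, a gene for a microtubule-associated protein, with a 5th percentile of 0% and a pooled level of 55% (chromosome 2L, position 3110898). It stood at 60% in set 1 and 52% in set 2, and was listed at 0 in both FM7a males and yw males. An exonic site of CG40228, in heterochromatin of chromosome arm 3L, had 0% and 53%, with 40% in set 1 and 67% in set 2. Mes-4, which encodes a histone methyltransferase, had an exonic site at 0% and 43%, and tou, a gene for a chromatin regulator, had an intronic site at 0% and 42%. An intronic site of CG10082 had a pooled level of 40%, and an exonic site of sec23, a coat protein gene of the secretory pathway, one of 39%.

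The remaining 4 of the 10 highest levels at 0 were all intronic. They were in rdgA at 34%, Pka-R2 at 32%, cac at 32% and CG40178 at 30%. The diacylglycerol kinase gene rdgA and the presynaptic calcium channel gene cac also have sites that held. At 45 of the 104 sites at 0 (43.3%) the sets lay within 2 points of each other, as they did at 503 of all 1350 sites (37.3%). Both sets were at 10% or more at 69 of the 104. The exonic site of Nhe3, a sodium-proton exchanger gene, was chosen after its values were seen: it had 27% in set 1, 27% in set 2 and a 5th percentile of 0%. The 104 sites lie in 81 entries, and 63 of these have 1 such site. No expected number stands beside this count, and 208 of all 395 entries have only 1 listed site. It therefore does not show how evenly drops were spread.

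Exonic sites held more often than intronic sites. Of 621 exonic sites 360 held (58.0%) and 36 dropped to 0 (5.80%), while of 729 intronic sites 234 held (32.1%) and 68 dropped to 0 (9.33%). Exonic sites were also edited at higher levels, with a median pooled level of 27% in exons and 18% in introns, so the raw shares are not comparable. Within bands the order was the same up to 69%. The share holding was 28.1% in exons and 19.3% in introns under 10%, 31.5% and 19.9% between 10% and 19%, and 51.9% and 30.6% between 20% and 29%. It was 71.1% in exons and 49.6% in introns between 30% and 49%, and 86.6% and 78.7% between 50% and 69%. At 70% or more all 60 exonic and all 12 intronic sites held. With each band weighted by its number of sites, 51.8% of exonic and 37.7% of intronic sites held, a difference of 14.1 points.

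Over all levels drops to 0 differed less. At matched level 7.01% of exonic and 8.42% of intronic sites dropped to 0, a difference of -1.41 points. Under 10% the shares at 0 were 15.6% in exons and 16.5% in introns, and between 10% and 19% the counts were 18 of 162 exonic and 32 of 291 intronic sites. At 20% or more, 8 of 395 exonic sites (2.03%) and 18 of 329 intronic sites (5.47%) dropped to 0, and between 30% and 49% the counts were 2 of 149 and 7 of 123.

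**Figure D2:**
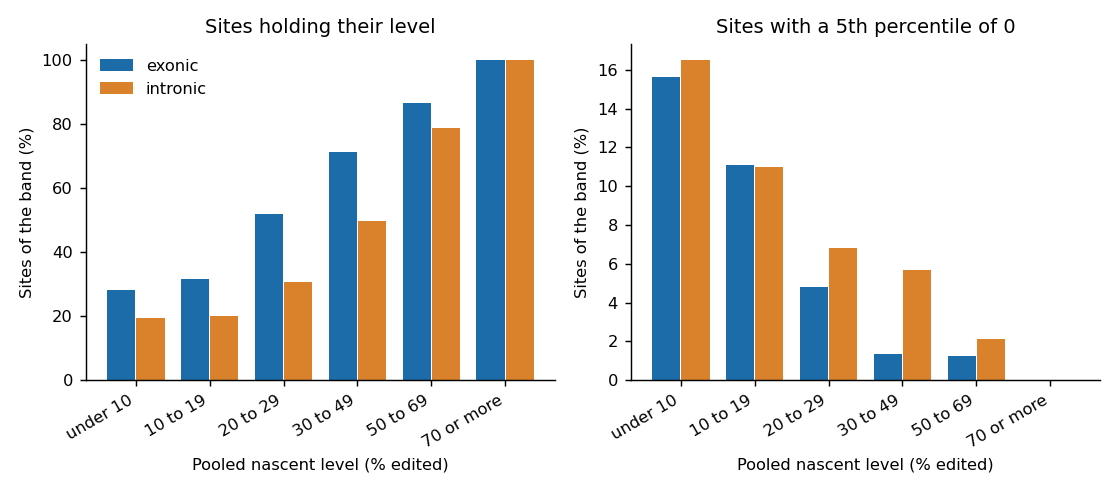
Bars give the percent of exonic (blue, left) and intronic (orange, right) sites in each band of pooled level that held their level (left panel) and whose 5th percentile was 0 (right panel, with its own scale). Exonic bars are taller in the left panel in every band up to 69%, while in the right panel the 2 kinds are close under 20%.

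The same order held inside genes. In the 58 entries with sites of both kinds, 61.4% of exonic and 45.0% of intronic sites held at matched level, a difference of 16.4 points. Pairing exonic with intronic sites of the same entry and the same band left 130 exonic and 162 intronic sites of 38 entries. Of these 82 exonic sites (63.1%) and 70 intronic sites (43.2%) held. The exonic share was higher in 33 of the 75 combinations of entry and band, lower in 13 and equal in 29, with a weighted difference of 19.3 points. The share at 0 was 1.95 points higher in exons in this comparison.

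GluClalpha and Ca-alpha1D have sites of both kinds, but in both genes nearly all exonic levels lie above the intronic ones, so level is not matched in these values. The 4 exonic sites of GluClalpha had 5th percentiles of 84%, 60%, 58% and 19% beside pooled levels of 90%, 67%, 67% and 31%, and all held. Its 2 intronic sites each had a 5th percentile of 4%, beside pooled levels of 21% and 18%. In Ca-alpha1D all 7 exonic sites held. Of its 4 intronic sites 2 held, with 5th percentiles of 35% and 32% beside pooled levels of 49% and 47%. Another had a 5th percentile of 4% and a pooled level of 21%, and the last had 0% and 15%.

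The 257 sites with an mRNA level are all exonic. At matched level, over the 5 bands from 10% up, 59.5% of them held, and 51.2% of exonic sites without an mRNA level did. The order was not the same in every band. Between 10% and 19%, 4 of the 14 sites with an mRNA level held, beside 51 of all 162 exonic sites (31.5%). Of the 257, 2 dropped to 0. Among intronic sites, those in entries that also have exonic sites held at 37.0% and those in other entries at 28.8%, with 5.72% and 12.0% at 0.

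Gene entries with 5 or more sites allow a description by gene. There are 74, with 857 sites, and 43 of them have no site at 0. For each, the number of holding sites was set beside a level-matched number, which is what the gene would have if its sites held as often as the sites of all other entries in the same band. Of the 74 entries 47 lay above this number and 27 below it. Of their 857 sites 440 held, beside 594 of all 1350 sites. The background includes the 321 entries with fewer than 5 sites, so an excess is not measured against entries with as many sites. The differences ran from -4.85 to 12.5 sites. These entries were not tested against chance, and sites of 1 gene share their transcript.

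The voltage-gated sodium channel gene para had the largest excess. Of its 46 sites 32 held, against a level-matched number of 19.5, and none dropped to 0, against 3.98. Both Region classes took part, with 18 of 23 exonic and 14 of 23 intronic sites holding. Its highest 5th percentile, 74%, was at an intronic site with a pooled level of 89%. Low sites held too: an exonic site had a 5th percentile of 4% and a pooled level of 6%. NaCP60E, a second gene of the sodium channel family, held at 17 of its 21 sites, all exonic, against 11.4, with none at 0. Its excess of 5.60 sites was 3.33 with the level of set 2 alone in place of the pooled level. Here and below, such values keep the 5th percentile over all 12 libraries, so they do not measure steadiness within 1 set. One of its sites had a 5th percentile of 73% and a pooled level of 78%, with 79% in set 1 and 77% in set 2. The 4 sites of NaCP60E that did not hold all had pooled levels of 10% or less.

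Among potassium channel genes, Sh, the A-type channel Shaker, held at 27 of its 58 sites, against 20.7. This excess of 6.26 sites was 0.88 when the level of set 2 alone was used. Sh had 4 sites at 0, against 5.69. Its sites are mostly intronic, and 23 of 52 intronic and 4 of 6 exonic sites held. Shab held at 14 of 19 sites, against 10.9, with none at 0. All 7 sites of qvr, which encodes a membrane-anchored regulator of Shaker channels, held, against 5.11. Their 5th percentiles ran from 16% to 67% and their pooled levels from 26% to 78%. By contrast the ether-a-go-go channel gene eag held at 6 of 12 sites, against 7.24, and slo at 6 of 11, against 5.66.

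The cytoskeletal spectraplakin gene shot held at 9 of 10 sites, against 3.81, although its median pooled level was 15.5%. Sites with 5th percentiles of 9%, 11% and 10% had pooled levels of 12%, 15% and 16%. Msp-300, which encodes a giant nesprin of muscle and nuclei, held at 8 of 10 sites, against 2.59. One site had a 5th percentile of 23% and a pooled level of 26%, a gap of 3 points. The median difference between the sets was 1 point in shot and 1.5 points in Msp-300. In both genes all 10 sites are exonic, and matched on Region class as well the numbers are 4.49 for shot and 3.28 for Msp-300.

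Of the release and kinase genes, cpx, which encodes the SNARE-binding protein complexin, held at 6 of 8 sites, against 2.35. Its 3 exonic sites had 5th percentiles of 32%, 17% and 8% beside pooled levels of 40%, 25% and 11%. All 5 sites of endoA, a gene of vesicle recycling, held, against 2.91, as did all 6 of CG42492, against 4.11. CaMKII, the calcium-calmodulin kinase gene of synaptic plasticity, held at 13 of 29 intronic sites, against 9.33, with 2 at 0. Its excess of 3.67 sites was 6.31 with the level of set 2 alone and 1.67 with that of set 1 alone. The intronic sites of rdgA held at 12 of 26, against 9.92, and unc-13, a priming factor gene, held at 10 of 24, against 8.63, each with 2 sites at 0. cac held at 14 of 26, against 14.2. Its exonic sites held at 9 of 12 and its intronic sites at 5 of 14.

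**Figure D3:**
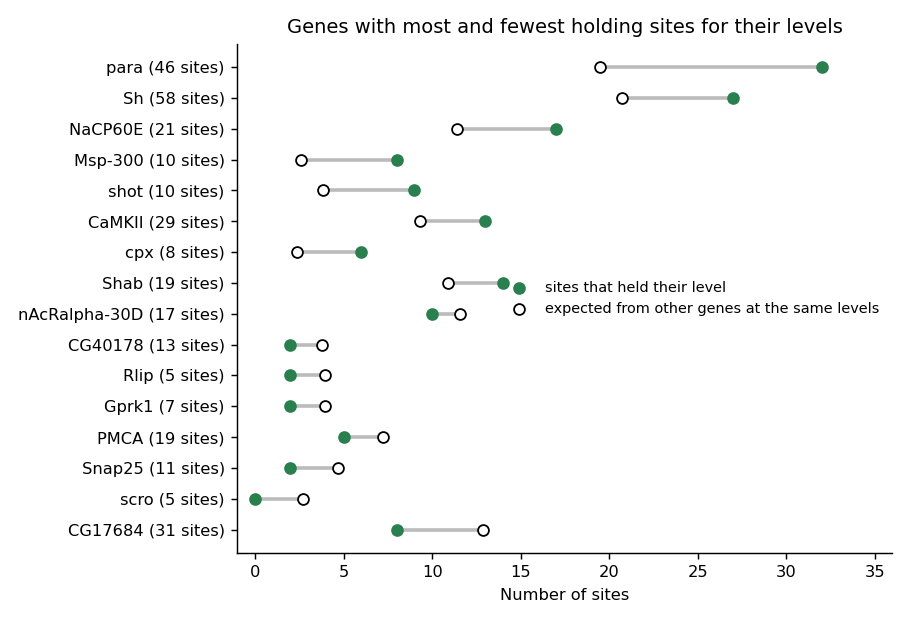
For the 8 gene entries with the most and the 8 with the fewest holding sites for their levels, filled points give the number of sites that held and open points the level-matched number from all other entries. The longest line is that of para, with 32 sites against 19.5, and scro lies at 0 sites against 2.72.

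The largest shortfall was that of CG17684, an uncharacterised gene in heterochromatin of chromosome arm 2R. Of its 31 intronic sites 8 held, against 12.9, and 3 dropped to 0, against 2.24. Matched on Region class as well, the number holding is 10.6. Another of its sites showed the widest disagreement of the sets in the whole table, with 30% in set 1 and 67% in set 2, a 5th percentile of 14% and a pooled level of 46%. No site of scro, a homeobox gene, held, against 2.72, or 2.32 matched on Region class as well. Its 5 intronic sites had 5th percentiles of 21%, 16%, 14%, 0% and 3%, beside pooled levels of 51%, 49%, 48%, 29% and 16%. The first of these lay in a band where 78.7% of intronic sites held, and the next 2 in a band where 49.6% did.

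Snap25, which encodes a membrane SNARE of release, held at 2 of 11 intronic sites, against 4.70, and 2 dropped to 0. The gene was uneven: one site had a 5th percentile of 77% and a pooled level of 93%, and another had 11% and 51%. The GTPase effector gene Rlip held at 2 of 5 exonic sites, against 3.92. A Rlip site had a 5th percentile of 6% and a pooled level of 47%, and set 1 was above set 2 at all 5 of its sites. Gprk1, a gene for a kinase that acts on G protein-coupled receptors, held at 2 of 7 sites, against 3.94. CG40178 held at 2 of 13 intronic sites, against 3.79, or 3.10 matched on Region class as well, with 3 at 0. PMCA, the plasma membrane calcium pump gene, held at 5 of 19 intronic sites, against 7.25, or 5.99 matched on Region class as well, and nAcRalpha-30D, a nicotinic receptor subunit gene, held at 10 of 17, against 11.6. The shortfalls of PMCA and nAcRalpha-30D turned to an excess of 2.09 and 1.96 sites with the level of set 2 alone.

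No entry had more than 4 sites at 0, beside 7.70% of all sites at 0. One of the 2 entries named cngl, for a cyclic-nucleotide-gated channel, had the largest excess (CG18210), with 3 of 6 intronic sites at 0, against 0.74. Its pooled levels were only 8% to 17%. CG40178 had 3 of 13, against 1.35. CG43073, nAcRalpha-80B, fru, Syn and Snap25 had 2 each, out of 6, 9, 7, 10 and 11 sites, against level-matched numbers of 0.50, 0.56, 0.61, 0.69 and 0.87. In Syn the 2 sites at 0 had pooled levels of 10% and 7% and lay in the same gene as the site that kept 90%. CG40263 had none at 0 among its 20 sites, against 1.95, and ps, an RNA-binding protein gene, had none among 15, against 1.86. CycG, a cyclin gene, had none at 0 among 8 sites, against 1.11. CG42540 had 2 of 23 at 0 and held at 10, against 10.5.

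By gene group, voltage-gated channels and their subunits held more often than all sites of the same levels. Their 240 sites in 15 entries held at 149 sites (62.1%), against a level-matched 119, and dropped to 0 at 8, against 17.2. This was so in exons, with 100 of 128 sites against 74.6. In introns 49 of 112 held, against 44.7, and of these 49 sites 14 are in para and 23 in Sh. When exons and introns are matched separately as well, the numbers are 81.9 in exons and 37.7 in introns. Without para and Sh, 90 of 136 sites held, against 78.4, and 99 of the 136 are exonic. The intronic sites of these other entries were not matched alone. Ligand-gated receptors lay on the other side. Their 67 sites in 10 entries held at 36 (53.7%), against 41.0, and dropped to 0 at 5, against 3.14, although their median pooled level of 36% was above the 23% of the voltage-gated channels. Their shortfall of -4.96 sites was -2.39 with the level of set 2 alone and -2.83 with that of set 1 alone.

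Within the ligand-gated group the nicotinic receptor subunit genes accounted for most of the sites, with 30 of 56 holding, against 34.5. nAcRbeta-64B held at 7 of 8 sites, against 6.84. nAcRalpha-34E, which held at 7 of 14, against 8.37, ranged widely: 1 exonic site had a 5th percentile of 74% and a pooled level of 84%, and another had 0% and 29%. Rdl, the GABA-gated chloride channel gene, had 5th percentiles of 81%, 29% and 7% beside pooled levels of 90%, 40% and 26% at its 3 exonic sites.

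Other groups lay near or above their level-matched numbers. Genes of synaptic vesicle release held at 55 of 112 sites, against 47.3. Kinase and second-messenger genes held at 29 of 67, against 23.9. Ion pumps and exchangers held at 19 of 39, against 17.2, phototransduction genes at 13 of 35, against 12.4, and sarcomere genes at 7 of 13, against 5.99. Of the 13 phototransduction sites that held 12 are in rdgA, which is also in the kinase group, and without it 1 of 9 held, against 2.48. The clock gene tim had 2 exonic sites, with 5th percentiles of 9% and 2% beside pooled levels of 30% and 15%, and neither held. Adar itself had 1 exonic site with a 5th percentile of 9% and a pooled level of 24%, with 29% in set 1 and 19% in set 2. The groups overlap in rdgA and stj, and they were written with earlier results of these data known.

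Sites on the heterochromatic arms and the unplaced sequence held less often as a group, though not in every entry. Of 101 such sites in 16 entries 27 held (26.7%), against a level-matched 39.7, and 11 dropped to 0, against 8.16. All but 2 of them are intronic, and matched on Region class as well the number is 33.2. Matched in this way, CG17684 (8 against 10.6), scro (0 against 2.32) and CG40178 (2 against 3.10) lay below. CG40263 (7 against 5.64) and CG41343 (5 against 3.85) lay above. These arms were not matched again without the entries that lay below. On chromosome X 136 of 302 sites held, against 129.6, and 18 dropped to 0, against 24.2. Without para and Sh, 77 of 198 sites on X held, against 88.8, and 14 dropped to 0, against 14.7. On chromosome 4, which is small and partly heterochromatic, 47 of 124 held, against 48.6.

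The replicate sets give a second view of steadiness, at the scale of 6 pooled libraries. Set 1 was above set 2 at 771 sites, below it at 459 and equal at 120, with a mean difference of 1.47 points. More sites were thus higher in set 1, the set described as depleted of ribosomal RNA, and that step and the replicate set cannot be told apart. The SD of a level between the sets was 2.12 points under 10%, 3.68, 4.58, 6.11 and 6.23 points in the next 4 bands and 4.30 points at 70% or more. As with the gap to the 5th percentile, mid-level sites varied most. At matched level the median absolute difference was 3.52 points for exonic and 4.44 points for intronic sites.

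The sets lay 10 or more points apart at 188 sites, or 13.9% of all, and at 69 of the 594 holding sites. At the 188 the pooled level was nearer to set 1 at 82, nearer to set 2 at 65 and midway at 41. The sets and the 5th percentile come from the same libraries, so they are not independent. At matched level the median absolute set difference was 2.95 points at holding sites, 4.82 at intermediate sites and 6.53 at sites that dropped to 0. The last value includes the band of 50% to 69%, where only 2 sites are at 0, with a median of 17.5 points. Without matching, the medians were 3, 4 and 4 points.

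Single genes stood out in both directions. Set 1 exceeded set 2 most at an intronic site of Gprk1, with 61% in set 1 and 31% in set 2. It was followed by ssx, an RNA-binding protein gene related to Sex-lethal, with 55% and 31%, and by Rim, an active-zone scaffold gene, with 74% and 51%. The Rim site nevertheless held, with a 5th percentile of 37% and a pooled level of 61%. A site of trpm, a cation channel gene, had 48% in set 1 and 27% in set 2, and one of CG34126 had 64% and 44%. In the other direction, beside the CG17684 and CG40228 sites given above, Parp had 47% in set 1 and 71% in set 2 at an intronic site, CG3638 had 5% and 26% at an exonic site, and milt, a gene of mitochondrial transport, had 40% and 60%.

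**Figure D4:**
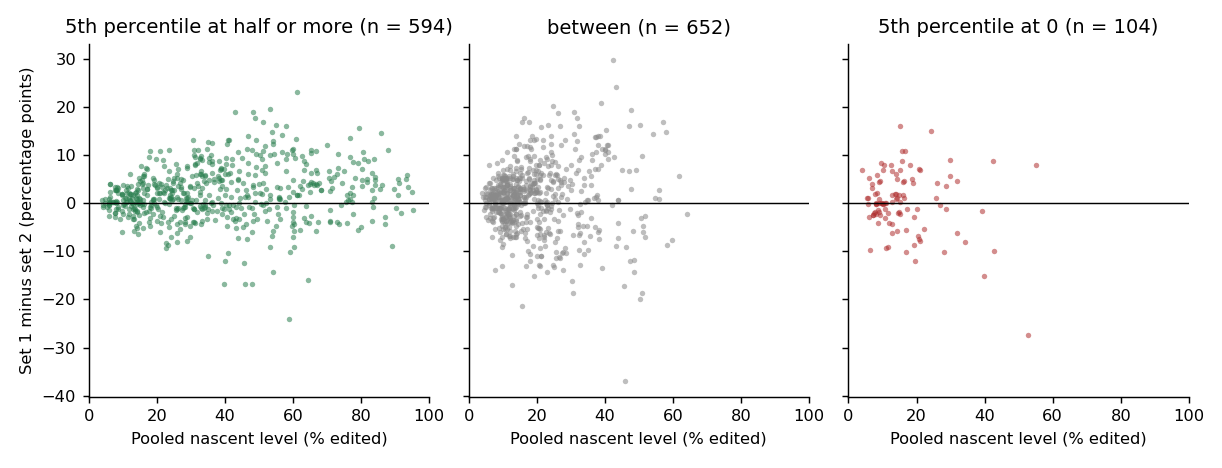
Set 1 minus set 2 in percentage points (vertical axis) is plotted against the pooled level (horizontal axis, percent edited) for sites that held their level (left), intermediate sites (middle) and sites whose 5th percentile was 0 (right), 1 point per site with a small random offset. The points spread most at mid levels, and the lowest point, at -37 points, is the CG17684 site.

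The male libraries were made separately from the 12 and did not enter the 5th percentile. Of all sites 609, or 45.1%, were marked as found in all 4 libraries of yw and FM7a males. This was so for 413 of the 594 holding sites (69.5%), 179 of the 652 intermediate sites (27.5%) and 17 of the 104 sites at 0 (16.3%). At matched pooled level the shares were 61.6% at holding sites and 17.3% at sites at 0. The difference appeared in exons, with 71.1% of holding sites and 25.0% of sites at 0, and in introns, with 51.3% and 15.0%. The 25.0% leans on bands with few exonic sites at 0, and unweighted 6 of 36 (16.7%) were found in all 4. The part that RNA read depth has in this was not tested, since that depth is unknown. Genomic DNA coverage, which does not measure RNA depth, was alike, with a level-matched 43.4 reads at holding sites and 42.8 at sites at 0.

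The shares listed at 0 in the males followed the same order. At matched level 10.1% of holding sites and 37.8% of sites at 0 were listed at 0 in FM7a males, and 6.13% and 21.2% were so in yw males. The yw male level differed from the pooled light:dark level by a level-matched median of 7.97 points at holding sites and 13.0 points at sites at 0. The 13.0 includes the band of 50% to 69%, where only 2 sites are at 0, with a median of 34.5 points. Without matching the order reverses, with medians of 9 and 8 points. The level-matched medians also reverse within exons alone, where they were 9.05 points and 8.43 points. Of the exonic sites at 0, only 2 lie between 30% and 49% and 1 between 50% and 69%. These bands keep their full weight, so the exonic value at 0 leans on few sites. Exceptions were plain among the named sites: the tou site at 0 had 46% in FM7a males and 60% in yw males, and was found in all 4 libraries. The sec23 site at 0 had 30% in FM7a males and 23% in yw males and was also found in all 4. In ADAR0 males 88.5% of holding sites and 90.6% of sites at 0 were listed at 0 at matched level, over the 5 bands under 70%. Without matching the shares were 86.3% and 90.2%. At 70% or more, 53 of 72 holding sites (73.6%) were listed at 0 in ADAR0 males, and the highest ADAR0 level was 20%. Over all levels the highest ADAR0 level was 100% in each class.

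Of 592 holding sites with a yw male level, 363 (61.3%) were at or above their light:dark 5th percentile. This was so at 491 of 650 intermediate sites (75.5%) and, since no level is below 0, at all 104 sites at 0. Over all sites with a yw male level it was so at 958 of 1346 (71.2%). The classes are set by the 5th percentile itself, and a lower one is easier to reach, so the order of these shares is partly built in. At the remaining holding sites the yw males lay below the level that nearly all of the 12 libraries exceeded. The yw male libraries differ from the 12 in the scale of preparation and the sequencer at once. Sex and time of day may differ as well, since the sex of the light:dark flies and a sampling time of the males are not given. These cannot be told apart.

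**Figure D5:**
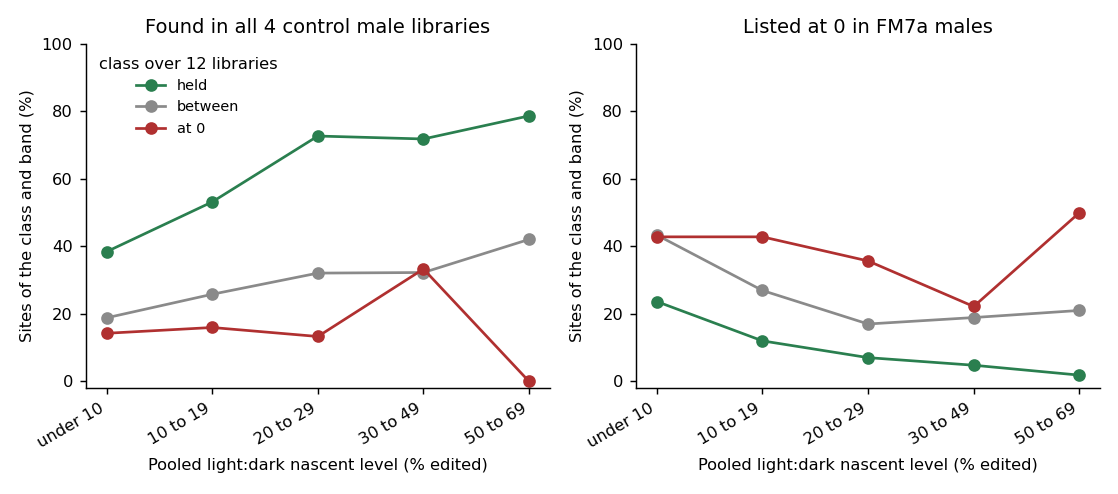
Lines give, by band of pooled light:dark level, the percent of sites found in all 4 control male libraries (left) and the percent listed at 0 in FM7a males (right), for sites that held their level (green), intermediate sites (grey) and sites whose 5th percentile was 0 (red). Holding sites lie highest on the left and lowest on the right in each band, and the red points at 50 to 69 rest on 2 sites.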

How the data were processed

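The 1350 sites were read from the deposited table. Its editing levels and the 5th percentile are fractions that the authors deposited to hundredths, pooled over libraries per the file headers, and were multiplied by 100 to give percent. Genomic DNA coverage is a deposited read count. Per the submitters' processing notes reads were placed on dm3, with TopHat and CASAVA 1.6 among the named tools. Site calling and the percentile method are not stated there.

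Sites were classed by the 5th percentile over the pooled level and compared in 6 level bands, either weighted by the number of all sites per band or, for a gene, with all other entries as the background. Where holding sites were set beside sites at 0, the 5 bands under 70% were used, since no site at 0 lies higher. These steps recovered known differences in simulated data. There sites were independent and shares did not vary with level inside a band. The simulation therefore cannot show how far the bands remove differences of level in the real data. No test was planned, since single libraries are not in the table. The members, gene lists and rules were chosen with earlier results of these data known. Genes were named by largest excess or shortfall (8 each, at least 5 sites) and sites by highest 5th percentile, highest level at 0, set difference or smallest gap. Names are those of the table. RefSeq Release 6 symbols served to match lists and replaced missing names. Python 3.11.15, pandas 2.3.3, numpy 2.4.6, scipy 1.17.1 and matplotlib 3.10.9 were used.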

Additional observations from a re-analysis of the deposited data

How the results depend on the processing

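No paired analysis was possible because each replicate set is deposited as 1 pooled level, with no value for a single library. The share of sites that held their level, 44.0% as reported, was 55.9% with a threshold of 0.4 of the pooled level and 29.7% with 0.6. It was 47.2% at pooled levels of 10% or more and 67.8% at sites found in all 4 control male libraries, where the share at 0 was 2.79%. Measured against the level of a single set, it lay between 42.6% and 47.2%. The share at 0 does not depend on that level. The exon minus intron difference in holding kept its direction under every alternative tried, with values from 9.04 to 19.3 points. The difference in drops to 0 was -1.41 points as reported and 1.95 points, reversed, within the same entry and band, an alternative chosen after seeing the data. Gene results were recomputed under alternatives also chosen after seeing the data, and 3 genes changed direction in holding sites minus the level-matched number. Sh was at -0.83 sites with the threshold of 0.6 and at 6.26 as reported. PMCA, at -2.25, had 2.09 with the level of set 2 alone, -0.72 with that of set 1 alone and 3.44 with the threshold of 0.4. nAcRalpha-30D, at -1.55, had 1.96, -1.02 and 1.04 under these settings. The cause was not tested. Unknown RNA depth limits every 0 in the table.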

Other observations

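Steady sites also lay closer to other listed sites. The nearest listed site on the chromosome was a median of 40 bases away from a holding site, 188 bases from an intermediate site and 1698 bases from a site at 0. At matched pooled level 49.8% of holding sites and 21.5% of sites at 0 had another listed site within 50 bases. Among neighbouring sites of similar level, within 5 points of each other, the class was the same in 67 of 104 pairs (64.4%) at 50 bases or less, in 48 of 78 pairs (61.5%) at over 50 to 1000 bases and in 49 of 84 pairs (58.3%) at more than 1000 bases. At 2 adjacent positions of qvr the 5th percentiles were 35% and 32% beside pooled levels of 48% and 47%, and at adjacent positions of GluClalpha they were 84% and 58% beside 90% and 67%. Adjacent sites that differed in level also differed in the 5th percentile. At neighbouring intronic positions of para the 5th percentiles were 74% and 4% beside pooled levels of 89% and 19%. Neither the GluClalpha pair nor the para pair lies within 5 points, so level is not matched in them.

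At 151 of the 209 holding sites with an mRNA level, the mean of the yw and Canton S mRNA levels was above the pooled nascent level, and at 54 it was below, with a median difference of 4.5 points. At the 46 intermediate sites the counts were 33 and 11, with the same median difference. The 209 holding sites had a median level of 62% in mRNA of yw flies and 57% in that of Canton S flies, beside a median pooled nascent level of 52% and a 5th percentile of 37%. The 46 intermediate sites had medians of 43.5% and 36% in the 2 kinds of mRNA, beside a pooled nascent level of 34%. Only 2 sites at 0 had an mRNA level. At 19 of the 209 holding sites the lower of the yw and Canton S levels lay below the nascent 5th percentile.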
